A study of Homo sapiens with 19 samples.

Results

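The D-type cyclins CCND1, CCND2 and CCND3, the cyclin-dependent kinase CDK6 and the INK4 inhibitors CDKN2A, CDKN2B, CDKN2C and CDKN2D were chosen by name as genes of the G1 cell cycle pathway. The rule uses no measured value, but earlier results of these data were known when the genes were chosen. These 8 genes are rows of the gene tables of the lymphoma cell lines OCI-LY10, TMD8 and SUDHL2, which hold 25365, 25267 and 25266 genes. All 3 are established human cell lines of diffuse large B-cell lymphoma, of the kind called activated B-cell-like. The series has 19 samples, of which 15 are RNA libraries and 4 are chromatin samples not analysed here. Cells of every group carried an inducible short hairpin RNA and received doxycycline at 20 ng/ml for 2 days. The hairpin was a control, or 1 of a pair against EGR1, labelled shEGR1#8 and shEGR1#9, where EGR1 is a zinc finger transcription factor made early after growth or antigen receptor signals. OCI-LY10 had 3 libraries per group (9 in all), and TMD8 and SUDHL2 had 1 library per group. No uninduced or untransduced cells were in the RNA set, so doxycycline and a hairpin are shared by all groups.

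D-type cyclins are made in response to growth signals and bind CDK4 or CDK6. The active complex phosphorylates the RB protein, which releases E2F factors and lets a cell pass from G1 into DNA synthesis. INK4 proteins bind CDK4 and CDK6 and keep D-type cyclins from activating them. In mature B cells, cyclins D2 and D3 are the usual forms: cyclin D2 follows B-cell receptor signalling, and cyclin D3 is required in germinal centre B cells. Cyclin D1 is largely silent in normal B cells and is known for its activation by translocation in mantle cell lymphoma. The CDKN2A and CDKN2B locus is often deleted in activated B-cell-like lymphoma.

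Because the series targets EGR1, the promoters of the members were searched for its binding motif, spelled GCGTGGGCG in the strict form and GCGNGGGCG, which includes the strict form, in the loose one. RefSeq promoters (build GRCh38.p14; 250 bases before to 50 after a gene start) were matched by symbol for 6 of the 8 members, all but CCND1 and CCND2, with 12 promoters between them. Both strands were read. The strict form was in 1 of the 12, and the loose form in 4 of the 12. The 4 were 2 of 3 promoters of CCND3, 1 of 2 of CDK6 and 1 of 3 of CDKN2C. Among all 35116 promoters of the same length, 0.795% held the strict form and 9.43% the loose form. Counted by gene, 11.2% of the 27305 genes in the promoter table had at least 1 promoter with the loose form, beside 3 of the 6 members matched. These 3 members were all tested in OCI-LY10. Among the 7830 genes of the promoter table tested there, the shares were higher, at 18.9% for the loose form and 1.71% for the strict form. The windows that hold the upstream matches are shown 5′ to 3′ on the gene's strand with the matched letters in capitals, because the series targets the factor that this motif belongs to. The CDKN2C window (chr1:50968623-50968691, plus strand) holds the strict form 53 to 45 bases before the start. The CCND3 window (chr6:42048865-42048933, minus strand) holds the loose form on the opposite strand, 215 to 207 bases before the start. The CDK6 window (chr7:92836624-92836692, minus strand) holds the loose form 89 to 81 bases before the start.
CDKN2C: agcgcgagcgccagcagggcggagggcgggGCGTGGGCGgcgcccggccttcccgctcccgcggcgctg
CCND3: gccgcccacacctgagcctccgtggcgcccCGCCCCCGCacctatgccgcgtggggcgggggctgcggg
CDK6: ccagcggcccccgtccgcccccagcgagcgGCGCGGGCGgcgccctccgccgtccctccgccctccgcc
These are matches of letters and not measured binding sites. The expression tables were made on hg19, so the coordinates serve only to place the windows.

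Levels were read as FPKM, fragments scaled to gene length and library size, since no header names the unit. On that reading, genes and the libraries of the same table can be compared. Each table may carry its own normalization, so levels set across cell lines are descriptions. The OCI-LY10 libraries had totals of 431993 to 445028 FPKM and 10319 to 10499 genes at 1 FPKM or more. All 7 B-cell markers on the list used reached 1 FPKM in each of the cell lines, and none of the 5 T and NK cell markers did. Single markers of other cell types reached that level, EPCAM and PECAM1 in OCI-LY10 and LYZ and COL1A1 in TMD8 and SUDHL2. EGR1 RNA ranged over 8.57 to 12.3 FPKM in the OCI-LY10 controls and 10.04 to 22.7 FPKM in the libraries labelled shEGR1#8 or shEGR1#9, so the target did not read lower there. In TMD8 it also read higher with both hairpin labels (7.31 FPKM in the control, 10.8 and 9.95 FPKM), and in SUDHL2 it read lower (17.0, 13.7 and 15.4 FPKM). Directions in OCI-LY10 and TMD8 therefore rest on the labels alone, with no lower EGR1 level behind them. The lower SUDHL2 readings come from 1 library per group and have no replicate check, so they do not establish a knockdown either. The TMD8 and SUDHL2 labels were not separated by their profiles: over 10826 genes, TMD8 hairpin libraries had a Pearson r across genes of 0.893 to 0.930 with SUDHL2 libraries and 0.881 to 0.890 with their own control. Short RNA genes took 36.3% of the FPKM in the TMD8 control and 60.5 to 63.1% in the TMD8 hairpin libraries, against 53.6 to 55.3% in SUDHL2 and 0.473 to 0.616% in OCI-LY10.

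CCND2, which encodes cyclin D2, was the most abundant member in OCI-LY10 and the only one whose level changed past the test. It read 104, 106 and 108 FPKM in the 3 controls, 87.7, 86.2 and 80.05 FPKM in the libraries labelled shEGR1#8, and 86.8, 79.9 and 84.6 FPKM in those labelled shEGR1#9. All 6 hairpin libraries lay below all 3 controls, and the libraries of the 2 hairpin labels overlapped. The means were 106.2 ± 2.21, 84.6 ± 4.05 and 83.8 ± 3.53 FPKM (SD, n = 3 each). Taken as log2(FPKM + 1), a scale on which changes of low genes come out too small, CCND2 fell by 0.33 with both hairpin labels averaged (SE 0.050, 95% interval −0.44 to −0.22, limma adjusted p = 0.00571). It fell by 0.32 with shEGR1#8 alone (limma adjusted p = 0.0180) and by 0.34 with shEGR1#9 alone (limma adjusted p = 0.0137), contrasts that share the 3 controls. The call with both labels was kept under all 17 alternatives (limma adjusted p from 0.00101 to 0.0436). The call for shEGR1#8 alone was lost with only the compared groups in the limma fit (adjusted p = 0.0713) and without control replicate 1, 2 or 3 (0.0657, 0.0722 and 0.0911). The call for shEGR1#9 alone was lost in limma without control replicate 1, 2 or 3 (adjusted p = 0.0523, 0.0639 and 0.0733) and without shEGR1#9 replicate 2 or 3 (0.0759 and 0.0576). Summed FPKM of the 5 proliferation markers MKI67, TOP2A, PCNA, MCM2 and CCNB1 moved with the groups, at 929 to 969 in the controls, 750.2 to 866 with shEGR1#8 and 776 to 845 with shEGR1#9. In that sum PCNA (438 to 462 FPKM in the controls, 308 to 415 FPKM in the hairpin libraries) and TOP2A (142 to 167, then 99.2 to 131 FPKM) lay below all controls in all 6 hairpin libraries and CCNB1 in 4 of the 6, whereas MKI67 (54.1 to 62.3, then 52.9 to 62.9 FPKM) and MCM2 overlapped. Other lists moved upwards, with the summed 7 B-cell markers at 2038 to 2176 FPKM in the controls and 2307 to 2586 FPKM in the hairpin libraries, and the 5 fibroblast and epithelial markers, nearly all EPCAM, at 6.06 to 6.21 and 6.78 to 8.68 FPKM. The B-cell markers did not move together, since CD79A lay above all controls and MS4A1 below all controls in all 6 hairpin libraries. The part of these markers in the CCND2 difference was not tested. Fewer cells of a kind and less RNA per cell cannot be told apart in such bulk samples.

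CCND3, which encodes cyclin D3, was the second most abundant member and stood higher in every hairpin library, by an amount that did not pass the test. Its levels were 40.9, 42.8 and 37.7 FPKM in the controls, 47.7, 43.0 and 53.2 FPKM with shEGR1#8, and 45.3, 46.7 and 52.2 FPKM with shEGR1#9. All 6 hairpin libraries lay above all 3 controls, although shEGR1#8 replicate 2 exceeded the highest control only narrowly. Group means came to 40.5 ± 2.54, 48.0 ± 5.09 and 48.0 ± 3.62 FPKM (SD, n = 3 each). With both labels CCND3 differed by 0.24 log2 units (SE 0.078, 95% interval 0.06 to 0.42, limma adjusted p = 0.0960). It passed the threshold without shEGR1#8 replicate 2 (limma adjusted p = 0.0469), and for shEGR1#9 alone with array weights (limma adjusted p = 0.0397). The 95% intervals are of single genes and not adjusted for the number of genes tested.

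CCND1, which encodes cyclin D1, was listed at 0 in 5 of the 9 OCI-LY10 libraries. The others were control replicate 1 at 0.0222 FPKM, shEGR1#8 replicate 2 at 0.0269 FPKM, and shEGR1#9 replicates 1 and 3 at 0.0248 and 0.111 FPKM. No OCI-LY10 library reached the 1 FPKM needed for the test, and no group stood apart from the others.

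**Figure D1:**
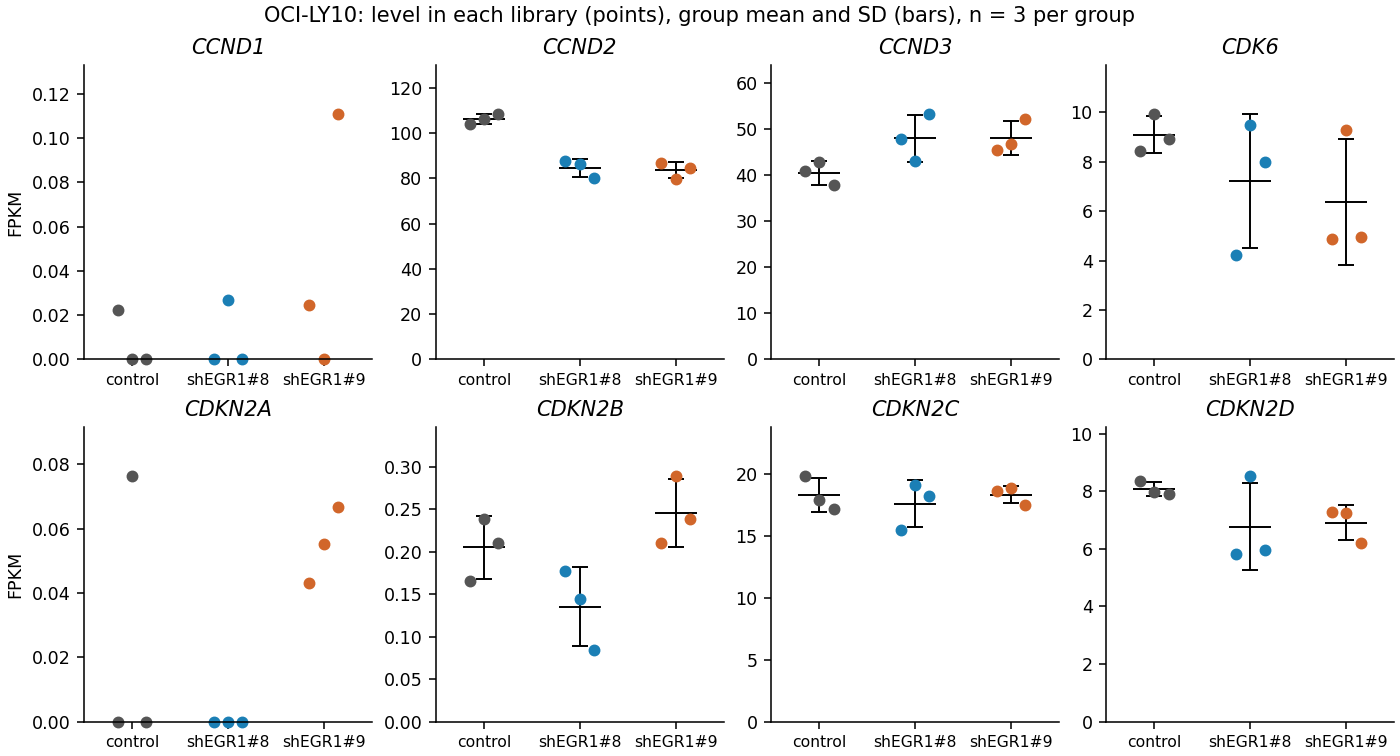
Level of each of the 8 genes in the 9 OCI-LY10 libraries, in FPKM on linear axes that start at 0 and differ between panels. Points are libraries, and horizontal lines with bars are group means with SD (n = 3), not drawn for CCND1 and CDKN2A, which are listed at 0 in 5 of the 9 libraries; CCND2 lies lower and CCND3 higher in all 6 hairpin libraries than in any control.

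CDK6, the kinase partner of the D-type cyclins beside CDK4, had the largest SD within groups among the 5 tested members on the log2(FPKM + 1) scale. It read 8.44, 9.92 and 8.92 FPKM in the controls, 4.22, 9.48 and 7.99 FPKM with shEGR1#8, and 4.86, 9.29 and 4.95 FPKM with shEGR1#9. The libraries of each hairpin label spanned both low and control-like values, and 4 of the 6 lay below all controls. Replicate 1 was low and replicate 2 control-like under both hairpin labels, while replicate 3 differed between them. Group means came to 9.09 ± 0.754, 7.23 ± 2.71 and 6.37 ± 2.53 FPKM (SD, n = 3 each). With both labels CDK6 differed by −0.43 log2 units (SE 0.241, 95% interval −0.97 to 0.12, limma adjusted p = 0.295), an interval that holds both 0 and a fall larger than that of CCND2. That SD was 0.410 log2 units, larger than that of 96.6% of all tested genes and of 97.2% of the 2174 tested genes within 0.5 log2 units of its level. The same SD was 0.0558 for CCND2, 0.118 for CCND3, 0.110 for CDKN2C and 0.170 for CDKN2D. CDK4, the other kinase of these complexes, differed little between groups, with means of 136 ± 1.87, 138 ± 7.26 and 138 ± 1.93 FPKM (SD, n = 3 each) and a log2 difference of 0.02 (SE 0.046, limma adjusted p = 0.771) that turned to −0.0038 with median-ratio scaling. CDK4 RNA exceeded CDK6 RNA by a ratio of 15.004 ± 1.42 in the controls, 21.5 ± 9.59 with shEGR1#8 and 23.7 ± 7.54 with shEGR1#9 (SD, n = 3 each).

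CDKN2C, which encodes p18INK4c, an inhibitor tied to the end of division in plasma cell differentiation, was the most abundant INK4 gene in OCI-LY10. Of its 3 promoters, 1 holds the strict motif shown above. It read 19.8, 17.9 and 17.2 FPKM in the controls, 15.5, 19.1 and 18.2 FPKM with shEGR1#8, and 18.6, 18.9 and 17.5 FPKM with shEGR1#9. The 3 groups overlapped. The log2 difference with both labels was −0.02 (SE 0.075, 95% interval −0.19 to 0.15, limma adjusted p = 0.856), and its sign changed under array weights and when some single libraries were left out.

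CDKN2D, which encodes p19INK4d, read 8.36, 7.97 and 7.90 FPKM in the controls, 5.84, 8.52 and 5.96 FPKM with shEGR1#8, and 7.29, 7.26 and 6.20 FPKM with shEGR1#9. Of the 6 hairpin libraries, 5 lay below all controls and shEGR1#8 replicate 2 lay above them. The log2 difference with both labels was −0.22 (SE 0.108, 95% interval −0.46 to 0.02, limma adjusted p = 0.231). Without shEGR1#8 replicate 2 it was −0.30 and passed the threshold (limma adjusted p = 0.0282), and for shEGR1#8 alone it was −0.40 (limma adjusted p = 0.0333). That same library held the highest CDK6, CDKN2C and CDKN2D values and the lowest CCND3 value among the 6 hairpin libraries.

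CDKN2A, which encodes p16INK4a and, in another reading frame, the protein ARF, was listed at 0 in 5 of the 9 OCI-LY10 libraries. It read 0.0763 FPKM in control replicate 2 and 0.0431, 0.0551 and 0.0666 FPKM in the 3 shEGR1#9 libraries. The gene-level values do not separate its 2 products. CDKN2B, which encodes p15INK4b, read 0.166, 0.239 and 0.211 FPKM in the controls, 0.177, 0.145 and 0.0846 FPKM with shEGR1#8, and 0.210, 0.289 and 0.239 FPKM with shEGR1#9. The CDKN2B values of each hairpin label overlapped those of the controls, but all those with shEGR1#8 lay below all those with shEGR1#9. CDKN2A was at 0 in all 3 shEGR1#8 libraries and above 0 in all 3 shEGR1#9 libraries. Neither gene reached the level needed for the test. How many genes separate in this way between the hairpin labels was not counted. These levels are near 0 and read depth is unknown, so no difference between the labels is drawn from them. The authors' use of strand in counting is not given in the sources used here, so reads of CDKN2B and CDKN2A cannot be told apart from those of antisense RNAs that overlap them.

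Across the family in OCI-LY10, 5 of the 8 members were tested and 1 was called with both hairpin labels (CCND2, lower), against a background of 8.56% of the 10612 genes tested, 5.84% higher and 2.71% lower. With quantile normalization 444 genes were higher and 367 lower, and with median-ratio scaling 529 and 375, in place of 620 and 288. The same single member was called with shEGR1#8 (background 5.33%, with 3.71% higher and 1.62% lower) and with shEGR1#9 (background 5.09%, with 3.55% higher and 1.54% lower). The median log2 difference over the 5 tested members was −0.22, beside 0.03 over all tested genes. All 6 hairpin libraries lay below all controls for 1 member, as for 8.22% of tested genes, and above all controls for 1 member, as for 12.9%. Between the hairpin labels no member was called (background 0%), and in limma 0 genes were called in all, with 267 at an unadjusted p under 0.05. The log2 difference of shEGR1#9 from shEGR1#8 had 95% intervals of −0.14 to 0.12 for CCND2, −0.20 to 0.21 for CCND3, −0.78 to 0.48 for CDK6, −0.14 to 0.26 for CDKN2C and −0.24 to 0.32 for CDKN2D.

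**Figure D2:**
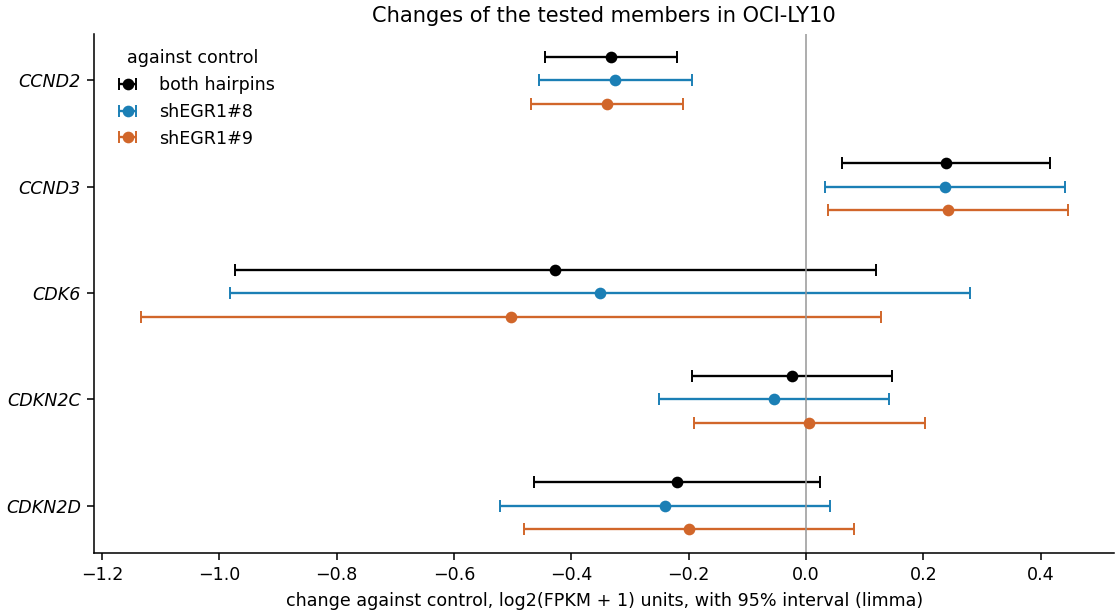
Log2(FPKM + 1) difference from control in OCI-LY10 for the 5 tested members, with 95% intervals from limma, for both hairpin labels averaged and for each label alone. The CCND2 intervals lie below 0 in all 3 contrasts, the CCND3 interval for both labels runs from 0.06 to 0.42, and that of CDK6 is the widest.

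By level, the members ran in OCI-LY10 from CCND2 through CCND3 and CDKN2C to CDK6 and CDKN2D, whose libraries overlapped (7.56 ± 2.24 and 7.26 ± 1.03 FPKM, SD, n = 9 each), and then to CDKN2B, CDKN2A and CCND1. The sum of the 3 D-type cyclins was 147 ± 2.19 FPKM in the controls, 133 ± 3.13 FPKM with shEGR1#8 and 132 ± 5.18 FPKM with shEGR1#9 (SD, n = 3 each). CCND2 made up 71.7, 71.3 and 74.2% of that sum in the controls, 64.8, 66.7 and 60.1% with shEGR1#8, and 65.7, 63.1 and 61.8% with shEGR1#9. The hairpin libraries thus lay below every control in the CCND2 share, and the CCND2 to CCND3 ratio was 2.63 ± 0.208 in the controls, 1.78 ± 0.254 with shEGR1#8 and 1.75 ± 0.150 with shEGR1#9 (SD, n = 3 each). With CCND1 near 0, share and ratio restate the lower CCND2 and higher CCND3 levels and are not a further result. The sum of the 4 INK4 genes was 26.6 ± 1.58, 24.5 ± 3.17 and 25.6 ± 1.31 FPKM, and its ratio to the D-type cyclin sum was 0.181 ± 0.0124, 0.185 ± 0.0284 and 0.194 ± 0.0170 (SD, n = 3 each). Averaged over both hairpin labels, that ratio differed from control by 0.0084, less than its SD of 0.0204 within groups. No p is given for these sums and ratios, since the members were chosen with earlier results known.

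**Figure D3:**
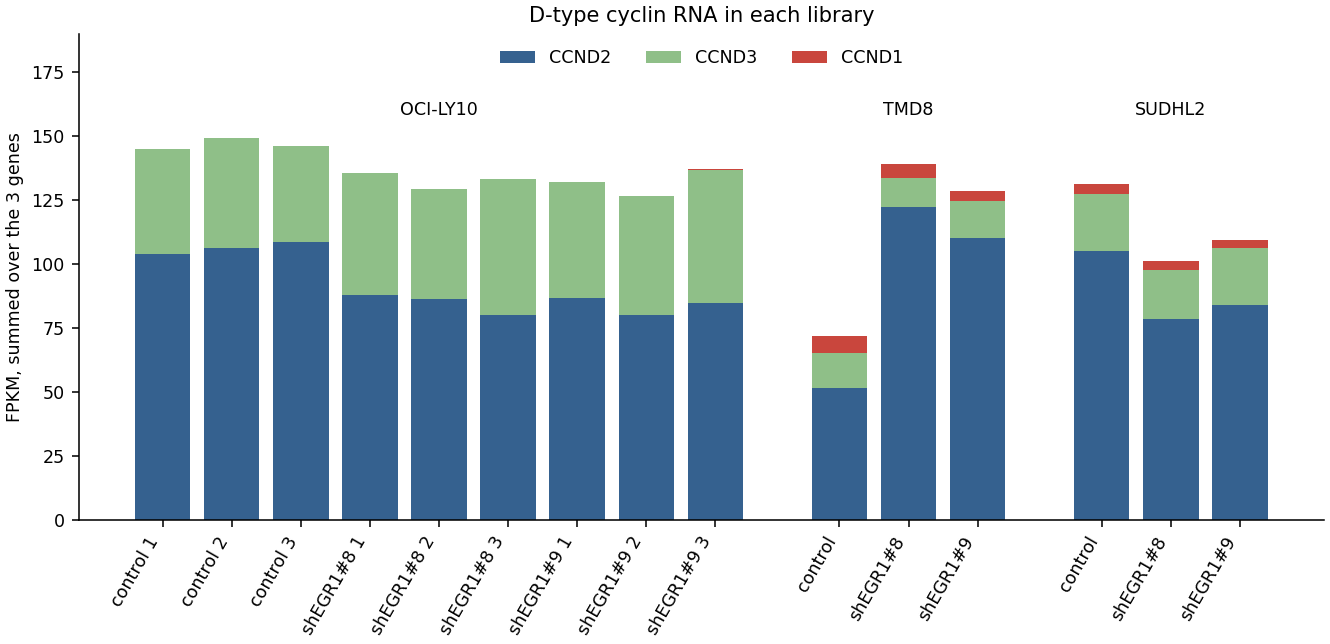
FPKM of the 3 D-type cyclins stacked for each of the 15 RNA libraries, by cell line and hairpin label, on a linear axis that starts at 0. CCND2 is the largest piece in every library, its share lies between 60.1 and 74.2% in OCI-LY10, and CCND1 adds at most 0.111 FPKM in OCI-LY10.

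In TMD8 and SUDHL2 there was 1 library per group, so differences have no replicate check and no test was made. CCND2 read 51.6 FPKM in the TMD8 control, 122.2 FPKM with shEGR1#8 and 109.9 FPKM with shEGR1#9, and in SUDHL2 105.0, 78.4 and 83.7 FPKM. The TMD8 control thus held the lowest CCND2 value of all 15 libraries, while its hairpin libraries lay above the SUDHL2 control. The log2 differences were 1.23 and 1.08 in TMD8 and −0.42 and −0.32 in SUDHL2 for shEGR1#8 and shEGR1#9, so the direction in SUDHL2 was that of OCI-LY10 and the direction in TMD8 was the opposite. The TMD8 control also stood apart in its short RNA share and its summed proliferation markers (670.2 FPKM, against 429 and 446 FPKM with the hairpins). Of these markers TOP2A, PCNA, MCM2 and CCNB1 read higher in the control than in both hairpin libraries, while MKI67 read lower (42.1 FPKM, against 79.1 and 65.9 FPKM). Their part in the result was not tested. CCND2 RNA was at 0.433 of the CDK4 level in the TMD8 control and 1.13 and 0.877 of it in the hairpin libraries.

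CCND3 read 13.7, 11.3 and 14.5 FPKM in TMD8 and 22.3, 19.1 and 22.6 FPKM in SUDHL2 (control, shEGR1#8, shEGR1#9), lower than in any OCI-LY10 library. Its log2 differences had opposite signs for the 2 hairpin labels in both lines, at −0.25 and 0.08 in TMD8 and −0.21 and 0.02 in SUDHL2. CCND1, by contrast, was measurable in both lines, at 6.30, 5.62 and 4.21 FPKM in TMD8 and 4.13, 3.55 and 2.95 FPKM in SUDHL2. It read lower with both hairpin labels in each line, by −0.14 and −0.49 log2 units in TMD8 and −0.17 and −0.38 in SUDHL2. CCND1 made up 8.80, 4.04 and 3.28% of the D-type cyclin sum in TMD8 and 3.14, 3.52 and 2.70% in SUDHL2.

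CDK6 read 14.1, 19.7 and 15.6 FPKM in TMD8 and 14.8, 11.7 and 9.03 FPKM in SUDHL2, in the same order of labels. It read higher than control with both hairpin labels in TMD8 (log2 differences 0.45 and 0.13) and lower with both in SUDHL2 (−0.32 and −0.66). CDKN2D read 2.78, 3.73 and 4.18 FPKM in TMD8 and 4.68, 5.92 and 7.33 FPKM in SUDHL2, higher with both hairpin labels in each line (0.32 and 0.45, then 0.29 and 0.55), unlike 5 of the 6 OCI-LY10 hairpin libraries. CDKN2C read 12.7, 7.86 and 12.4 FPKM in TMD8 and 9.51, 8.24 and 9.68 FPKM in SUDHL2, where shEGR1#8 gave the lowest value in each line.

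Of the 6 members with a mean of at least 1 FPKM, 3 read higher with both hairpin labels in TMD8 (CCND2, CDK6 and CDKN2D; 34.4% of 11078 genes did so) and 2 lower (CCND1 and CDKN2C; 43.2%). In SUDHL2, 1 read higher (CDKN2D; 37.2% of 11023 genes) and 3 lower (CCND1, CCND2 and CDK6; 36%). With shEGR1#8 in TMD8, 1 member was higher by at least 0.5 log2 units (CCND2; 14.4% of genes) and 1 lower (CDKN2C; 24.8%), and with shEGR1#9 CCND2 was again higher (16.5%) and no member lower (22.7%). In SUDHL2 no member passed 0.5 with shEGR1#8 (8.26% of genes higher, 4.89% lower), and with shEGR1#9 CDKN2D was higher (11.4%) and CDK6 lower (10.7%). CCND2 in TMD8 was the 1 member past 0.5 log2 units with both labels, against 8.63% of genes higher by that much and 17.7% lower. No member passed 0.5 with both labels in SUDHL2, where 5.2% of genes were higher and 2.63% lower by that much. The median log2 difference over all such genes was −0.11 and −0.01 in TMD8 and 0.01 and 0.01 in SUDHL2 (shEGR1#8, then shEGR1#9).

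**Figure D4:**
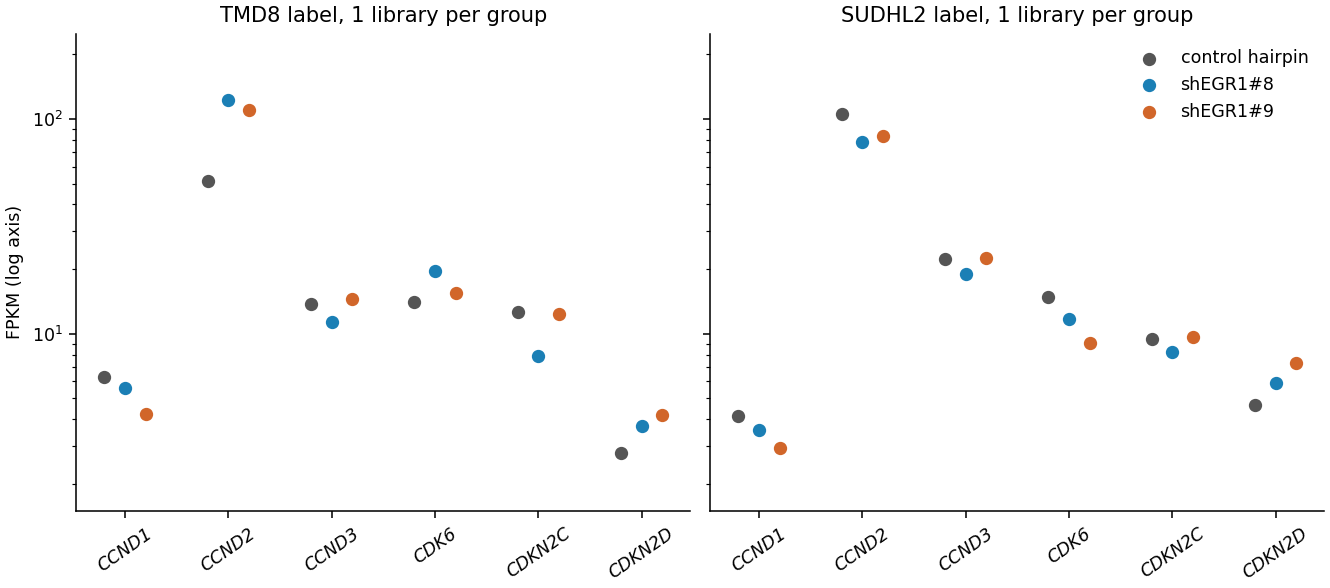
FPKM on a log axis of 6 members in the 3 TMD8 and 3 SUDHL2 libraries, 1 point per library, coloured by hairpin label, with no error because there is 1 library per group. CCND2 is lower in the TMD8 control (51.6 FPKM) than in either TMD8 hairpin library, CCND1 lies between 2.95 and 6.30 FPKM, and CDKN2A and CDKN2B, listed at 0 in all 6 libraries, are not drawn.

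CDKN2A and CDKN2B were listed at 0 in all 6 TMD8 and SUDHL2 libraries. Such a listing can be a failed estimate, so the genes that flank them in RefSeq were read as well. Their order there is MTAP, CDKN2A, CDKN2B-AS1, CDKN2B and DMRTA1, with shorter genes and pseudogenes between. MTAP, which encodes an enzyme of methionine salvage, read 1.38 to 2.00 FPKM in OCI-LY10, 0.0845, 0.630 and 0.159 FPKM in TMD8 and 0.240, 0.179 and 0.366 FPKM in SUDHL2. DMRTA1, a transcription factor gene, read 0.164 to 0.611 FPKM in OCI-LY10 and was listed at 0 in all 6 other libraries. CDKN2B-AS1, the antisense RNA also known as ANRIL, went the other way, at 0.182 ± 0.0335, 0.146 ± 0.0408 and 0.167 ± 0.0439 FPKM in OCI-LY10 (SD, n = 3 each), 0.908, 6.02 and 2.86 FPKM in TMD8 and 1.82, 2.30 and 2.71 FPKM in SUDHL2. Copy number was not measured, and each table may carry its own normalization, so levels set across cell lines are descriptions.

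The other genes of the pathway were read from lists of 51 genes, of which 47 were tested in OCI-LY10. With both hairpin labels 3 rose, 4 fell and 40 did not pass, where 5.84% of all tested genes rose and 2.71% fell. Their median log2 difference was −0.04, beside 0.03 over all tested genes. With shEGR1#8 alone and with shEGR1#9 alone 1 rose and 2 fell (5.33% and 5.09% of all tested genes were called), and between the hairpin labels none of the 47 was called. None of the 6 partner kinases and cyclins (CDK4, CDK2, CCNE1, CCNE2, CCNA2 and CDC25A), the 5 genes of the CDK-activating kinase and CDK chaperones, or the 3 RB family genes passed the test with both labels.

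Of the 2 tested CIP and KIP inhibitors 1 passed the test: CDKN1A, which encodes p21, rose by 1.03 log2 units (SE 0.0719, limma adjusted p = 0.000182), from 23.4 ± 1.76 FPKM to 49.9 ± 4.43 and 47.6 ± 2.77 FPKM (SD, n = 3 each). Of the genes for turnover of G1 cyclins and inhibitors, SKP2, the ubiquitin ligase subunit that targets p27, fell by 0.83 (SE 0.0891, limma adjusted p = 0.00105), and FBXO4, a ubiquitin ligase subunit linked to cyclin D1 turnover, fell by 0.45 (limma adjusted p = 0.0239). AMBRA1, the adaptor through which D-type cyclins are marked for degradation, rose by 0.24 (limma adjusted p = 0.0471). Of the 10 E2F and DP factors, E2F2 fell by 0.35 (limma adjusted p = 0.00585) and E2F5 by 0.33 (limma adjusted p = 0.0276). Of the 8 Polycomb and other repressors of the INK4 locus, CBX8 rose by 0.34 (limma adjusted p = 0.0390). For each of these 7 genes all 6 OCI-LY10 hairpin libraries lay beyond all 3 controls. They were named because they were called on these same libraries, so this adds no separate support. Among all tested genes 8.22% lay below all controls in this way and 12.9% above. In the single libraries of TMD8 and SUDHL2, CDKN1A, CBX8 and AMBRA1 read higher and SKP2 and E2F5 lower with both labels. Such readings are common, since both labels share 1 control library in each line. In TMD8 34.4% of genes read higher and 43.2% lower with both labels, and in SUDHL2 37.2% and 36%. FBXO4 read lower in TMD8 (3.19, then 1.66 and 0.573 FPKM) but higher in SUDHL2 (1.65, then 2.07 and 2.46 FPKM). E2F2 read higher in TMD8 (0.851, then 1.30 and 1.76 FPKM), and its labels split in SUDHL2 (1.54, then 1.42 and 2.00 FPKM). The calls of CDKN1A, SKP2 and E2F2 were kept under all alternatives, whereas those of FBXO4, E2F5, CBX8 and AMBRA1 were each lost without any 1 of the 3 control replicates (limma adjusted p from 0.0679 to 0.186) and without shEGR1#9 replicate 2 or 3 (0.0531 to 0.103). The call of CBX8 was also lost without shEGR1#8 replicate 2 (limma adjusted p = 0.0581) and with a filter of 0.1 FPKM (0.0501), that of AMBRA1 without shEGR1#8 replicate 1 or shEGR1#9 replicate 1 (0.0629 and 0.0634), and both with quantile normalization (0.0605 and 0.114) and without a filter on low values (0.0695 each). AMBRA1 was also lost with a filter of 0.1 FPKM (limma adjusted p = 0.0609), with median-ratio scaling (0.0766) and with a replicate block (0.0647).

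The genes whose pattern over the 9 OCI-LY10 libraries was most like that of each tested member were ranked by Pearson r of log2(FPKM + 1), given as a description over libraries that share groups. For CCND2 they included GMNN, the replication licensing inhibitor geminin (r = 0.983), and TAF9B (0.982). For CCND3 they were LIMD2 (0.995), the lipase gene PNPLA2 (0.987) and ERF (0.981). For CDK6 they were ZNF266 (0.974), NADSYN1 (0.947) and LAMTOR2 (0.926), for CDKN2C TMEM38A (0.961), FBXO48 (0.940) and SNORD15B (0.936), and for CDKN2D the lamin gene LMNB1 (0.969), RPS20 (0.967) and ABHD10 (0.964).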

How the data were processed

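Per the labels' protocols, complementary DNA was prepared with Illumina's TruSeq RNA chemistry. Bowtie2, HISAT and StringTie were used with hg19, per the submitters' processing notes and their versions, the annotation and any scaling were not given in these sources. The deposited tables hold 1 value per gene and library, read as FPKM from the values because no header names the unit. Read depth is unknown, so no counting interval is given. Lines with a repeated name (4, 10 and 10) and, in SUDHL2, 1 joined line and the 429 lines that repeat the end of the TMD8 table were left out. Libraries were grouped by title and treatment label. No column was left unmapped.

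In OCI-LY10, genes with at least 1 FPKM in at least 3 of 9 libraries (10612) were fitted as log2(FPKM + 1) in limma 3.58.1 (R 4.3.3) with a mean-variance trend, 1 mean per group and all 9 libraries. P-values were adjusted by Benjamini-Hochberg over all tested genes and called under 0.05; the script was tested on simulated data. The labels do not say that replicates are separate cultures, and p-values then reflect only how much these libraries scatter, which could be technical scatter. In TMD8 and SUDHL2, differences of log2(FPKM + 1) were taken among genes with a mean of at least 1 FPKM. Replicate numbers partly ran together between the hairpin labels, where the deviations of same-numbered libraries from their group means correlated at 0.173, 0.134 and 0.260. Pairs of other numbers there ran from −0.269 to 0.146. The highest of them, shEGR1#8 replicate 2 with shEGR1#9 replicate 1, exceeded the 0.134 of the replicates numbered 2. Same-numbered libraries did not run together with the controls (−0.188 to 0.0597). The labels do not say what a number marks. Alternatives were other pseudocounts, filters, scalings, array weights, a replicate block, the compared groups alone, and each replicate left out.

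The text names all 8 members, pathway genes called with both labels (at most 12) with CDK4 and the neighbours of CDKN2A, and the 3 genes most like each tested member; 1 of these and 1 pathway list are not reported here. Members and lists were chosen with earlier results of these data known. Other steps used Python 3.11.15, numpy 2.4.6, pandas 2.3.3 and matplotlib 3.10.9.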

Additional observations from a re-analysis of the deposited data

Results flagged for a closer look

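Between TMD8 and both OCI-LY10 and SUDHL2, CCND2 moved in opposite directions in every hairpin library. The log2 ratio of mean FPKM + 1, hairpin labels to control, was −0.33 in OCI-LY10, 1.15 in TMD8 and −0.37 in SUDHL2. CDK6 did so between TMD8, at 0.30, and SUDHL2, at −0.48. These differences between cell lines were not tested, since TMD8 and SUDHL2 have 1 control library each, and the TMD8 control is the library that stood apart in its short RNA share (36.3%).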

How the results depend on the processing

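Replicate numbers did not pair the hairpin libraries with the controls, and 5 of 9 libraries correlated best with their own number. With a replicate block 775 genes were called in place of 908 with both labels, 349 in place of 566 with shEGR1#8 and 351 in place of 540 with shEGR1#9. Array weights gave 1914 genes with both labels and 1950 with shEGR1#9. The compared groups alone gave 128 with shEGR1#8 and 1186 with shEGR1#9. Leaving out single replicates gave 281 to 1318, 133 to 699 and 143 to 1153 genes, the lowest each time without control replicate 3. Between the hairpin labels, a replicate block left 0 genes called, also when only those groups were fitted (chosen after seeing the data), and changed no member's call. There the count went from 0 to 1 without a filter and to 0 to 9 when replicates were left out.

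Called members numbered 1 in each comparison with control. Leaving out replicates gave 1 to 3 with both labels (3 without shEGR1#8 replicate 2), 0 to 2 with shEGR1#8 and 0 to 1 with shEGR1#9. The compared groups alone gave 0 with shEGR1#8, and array weights gave 2 with shEGR1#9. A mean of at least 5 FPKM left 897 and 1513 SUDHL2 genes past 0.5, in place of 1449 and 2440.

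Signs turned for CDKN2C, CDK4 and MTAP, and between the hairpin labels, none of them called in the comparisons as reported. CDKN2C with both labels was 0.0023 with array weights and ran from −0.0663 to 0.0320 without single replicates, from −0.114 to 0.0310 with shEGR1#8 and from −0.0362 to 0.0621 with shEGR1#9, where quantile normalization gave −0.0254 and median-ratio scaling −0.0189. Between the hairpin labels the ranges without single replicates were −0.0538 to 0.0189 (CCND2), −0.0693 to 0.0809 (CCND3), −0.450 to 0.0527 (CDK6), −0.0252 to 0.120 (CDKN2C) and −0.0433 to 0.196 (CDKN2D). There CCND3 was −0.00034 with quantile normalization and CDKN2D −0.0809 with array weights. CDK4 was −0.0038 with median-ratio scaling, and MTAP ran from −0.117 to 0.0231 without single replicates. A pseudocount of 0.1 took CCND1 to −0.57 and CDKN2D to 0.57 with shEGR1#9 in TMD8, and median-ratio scaling took CDK6 to 0.57 with shEGR1#8 there. The causes of these changes were not tested. Unknown depth limits the low levels of CCND1, CDKN2A and CDKN2B.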
